A study of Mus musculus with 4 samples.

Results

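Kirrel2, Kirrel3, Efna3, Efna5, Epha5 and Epha7 are 6 genes whose products sort the axons of olfactory sensory neurons (OSNs), and their transcripts were followed across the cell types, the mature OSN clusters and the receptor-defined OSN populations of the mouse olfactory mucosa. The genes were taken as a named list, and they are 6 of the 55511 features in the deposited count table. The tissue was the main olfactory epithelium of 4 male C57BL/6 mice (C57BL/6J in the study's methods) aged 8 weeks, which had no treatment and form a single group; each mouse gave 1 library (10x Genomics 3′ v3.1 chemistry), so the mice are the replicates and the cells of a mouse are not. Cells were freed with papain and sorted by flow cytometry as nucleated (Hoechst+) and live (DRAQ7-), and no label marks a batch. The submitters' annotation retained 15859 of 21809 barcodes and called 10519 of them mature OSNs, of which 9791 carried the name of the olfactory receptor they express. These fell into 960 receptor populations, of which 134 had at least 20 neurons and hold 4143 neurons. Immune and blood cells, given below beside the retained types, came from the barcodes that the study had removed.

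Kirrel2 and Kirrel3 encode immunoglobulin-type adhesion proteins that bind in trans to copies of themselves, so that axons carrying the same Kirrel tend to adhere. Ephrin-A proteins, such as those encoded by Efna3 and Efna5, are membrane-anchored ligands of EphA receptor tyrosine kinases, such as Epha5 and Epha7, and their contact between axons is usually repulsive. OSN axons that express the same receptor gene converge onto shared glomeruli in the olfactory bulb, and in these neurons Kirrel and ephrin-A levels are known to depend on receptor identity and on the neuron's activity. S100a5, a calcium-binding protein whose transcript follows OSN activity, is therefore given beside them.

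On the mouse genome GRCm38, Kirrel2 lies on chromosome 7 (30447534 to 30457690, minus strand) and overlaps no other annotated gene. Kirrel3 lies on chromosome 9 (34485894 to 35036716, plus strand), where Gm38217 and Gm23702 overlap it in the same direction and Kirrel3os opposite to it. Overlap was taken over whole gene spans, and whether it touched the reads counted for Kirrel3 was not examined. Efna3 (chromosome 3, 89313899 to 89322965, minus), Epha5 (chromosome 5, 84054761 to 84417382, minus) and Epha7 (chromosome 4, 28813131 to 28967499, plus) each have 1 annotated gene on the opposite strand (Gm15998, Hmgn2-ps1 and Gm11915), and Efna5 lies on chromosome 17 (62604184 to 62881317, minus) with no overlapping gene listed. The sequence just before the start of Kirrel2 and Epha5, whose levels ran together across receptor populations, and of Efna3 and Efna5, whose levels ran opposite to them, is printed here 5′ to 3′ on the gene's strand (RefSeq, GRCm38.p6). The windows are chr7:30457691-30457765 for Kirrel2, chr5:84417383-84417632 for Epha5, chr3:89322966-89323189 for Efna3 and chr17:62881318-62881567 for Efna5, and hold only bases outside the annotated gene.
Kirrel2: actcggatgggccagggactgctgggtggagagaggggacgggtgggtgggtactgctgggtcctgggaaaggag
Epha5: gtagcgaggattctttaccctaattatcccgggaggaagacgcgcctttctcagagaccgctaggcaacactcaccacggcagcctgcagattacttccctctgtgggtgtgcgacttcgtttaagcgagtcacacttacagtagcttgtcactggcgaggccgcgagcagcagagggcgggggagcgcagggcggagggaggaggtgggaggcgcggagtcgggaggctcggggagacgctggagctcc
Efna3: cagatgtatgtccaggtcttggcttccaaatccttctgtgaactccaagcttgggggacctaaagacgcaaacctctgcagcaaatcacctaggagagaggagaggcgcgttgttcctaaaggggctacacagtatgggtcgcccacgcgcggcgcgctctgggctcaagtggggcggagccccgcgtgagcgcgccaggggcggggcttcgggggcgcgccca
Efna5: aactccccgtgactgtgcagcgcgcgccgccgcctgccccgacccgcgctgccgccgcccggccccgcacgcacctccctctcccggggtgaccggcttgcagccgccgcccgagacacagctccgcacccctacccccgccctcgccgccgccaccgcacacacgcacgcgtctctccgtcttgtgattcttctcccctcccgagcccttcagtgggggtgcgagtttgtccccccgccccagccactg
No base is in capitals because no motif searched was found. The motifs were the full cAMP response element TGACGTCA, its shorter form TGACG, which lies within it, and the Ebf core CCCNNGGG, each on both strands. They were searched in the whole 250 bases before each start, of which the letters printed are the part outside the annotated gene. Over the 32851 windows of 250 bases in the table, 1.55% held the full element, 17.8% the shorter form and 11.8% the Ebf core. The absence of these letters says nothing about the factors themselves. The table holds no entry for Kirrel3.

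Total depth was 23157467 to 32382702 UMIs (unique molecular identifiers, counted transcripts) per library, and the median mature OSN had 4004 to 6591 UMIs depending on the mouse. Levels are given as UMIs per 10000 UMIs of the cell type, cluster or population in a mouse, and as mean ± SD over the 4 mice. Omp, Adcy3, Cnga2 and Gng13 were each highest in mature OSNs, with Omp at 72.1 ± 3.78. The study gave this label by high Omp, Cnga2 and Gng13, so these markers are no separate check of it. Of the markers listed for the other cell types, Kit, listed for globose basal cells, was highest in Mv2 microvillous cells and Mki67 in blood cells, and all others were highest in their own type. Across the libraries 54 barcode sequences occurred more than once. No doublet caller was run here.

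Among cell types, 5 of the 6 genes were highest in mature OSNs, and Kirrel3 was highest in Mv1 microvillous cells. The genes appeared at different steps of the neuronal lineage, which runs from globose basal cells (GBC) through immediate neuronal precursors (INP) and 2 immature OSN stages (iOSN1, iOSN2) to mature OSNs (mOSN). The 2 ephrin genes were already present in INP, whereas Kirrel2, Epha5 and Epha7 stood several-fold higher in iOSN2 than in iOSN1. These cell types were made from the expression of the same cells, the 6 genes included, so their levels are described without a test, and 2 types are said to differ only where the ranges over the 4 mice do not overlap. In such pooled sums, fewer cells with a transcript and less transcript per cell cannot be told apart.

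Kirrel2 stood at 5.58, 6.20, 7.80 and 6.56 UMIs per 10000 in the mature OSNs of mice 1 to 4 (6.54 ± 0.935, n = 4). In iOSN2 the values were 5.05, 5.34, 5.14 and 5.24, and in iOSN1 0.879, 0.756, 0.550 and 0.869. No mouse's iOSN2 value reached the lowest mature value, and iOSN2 exceeded iOSN1 6.80-fold in the mean. Below iOSN1 no neighbouring pair of types was separated, with 0.302 in INP and 0.112 in GBC. In immune and blood cells, which are not neurons, the ratio of Kirrel2 to Omp was at most 0.101, against 0.0901 in mature OSNs.

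Epha5 followed the same course from iOSN1 to mature OSNs. Before that it was lower in INP (0.204) than in GBC (0.474), without overlap, and stood at 0.489 in iOSN1. Its level was 5.32, 5.15, 6.14 and 6.03 in mature OSNs of mice 1 to 4 (5.66 ± 0.497) and 3.72, 3.94, 4.57 and 4.52 in iOSN2, without overlap, and iOSN2 exceeded iOSN1 8.55-fold. Unlike Kirrel2, Epha5 was also high in Mv2 microvillous cells, the type with the most Ascl3 and Cftr, at 3.24, 2.84, 3.92 and 2.88, and lower in Mv1 microvillous cells, the type with the most Trpm5 and Pou2f3, at 1.65, 1.81, 1.91 and 1.31. The ratio of Epha5 to Omp was 4.17 in Mv2 and 0.419 in Mv1 against 0.0787 in mature OSNs. Epha7 was low throughout, at 0.728 in mature OSNs and 0.521 in iOSN2 with overlapping ranges, and at most 0.164 elsewhere.

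Kirrel3 had another order. It was highest in Mv1 microvillous cells, at 1.41, 1.81, 1.74 and 1.66 in mice 1 to 4 (1.65 ± 0.177), above all other types in every mouse. iOSN2 (0.594), Mv2 (0.504 ± 0.116) and mature OSNs (0.466 ± 0.0323) followed with overlapping ranges, and iOSN1 (0.210) lay below them. The ratio of Kirrel3 to Omp was 0.400 in Mv1 and 0.620 in Mv2 against 0.0065 in mature OSNs.

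The ephrin ligand genes were present earlier. Efna3 read 1.37, 1.47, 1.49 and 1.07 in INP (1.35 ± 0.192), 11.4-fold above GBC, and was higher at each later step, at 1.88 in iOSN1, 3.55 in iOSN2 and 4.65, 4.64, 4.20 and 3.99 in the mature OSNs of mice 1 to 4 (4.37 ± 0.327), with no overlap between steps. Efna5 was 0.694 in INP, 4.52-fold above GBC, was 0.597 in iOSN1 and 0.580 in iOSN2 with overlapping ranges, and reached 1.12 ± 0.153 in mature OSNs, 1.94-fold above iOSN2. Efna5 was also present outside the lineage, at 0.672 in sustentacular (Sus) supporting cells and 0.458 and 0.384 in the HBC1 and HBC2 horizontal basal cells, which overlapped with the INP and immature stages.

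**Figure D1:**
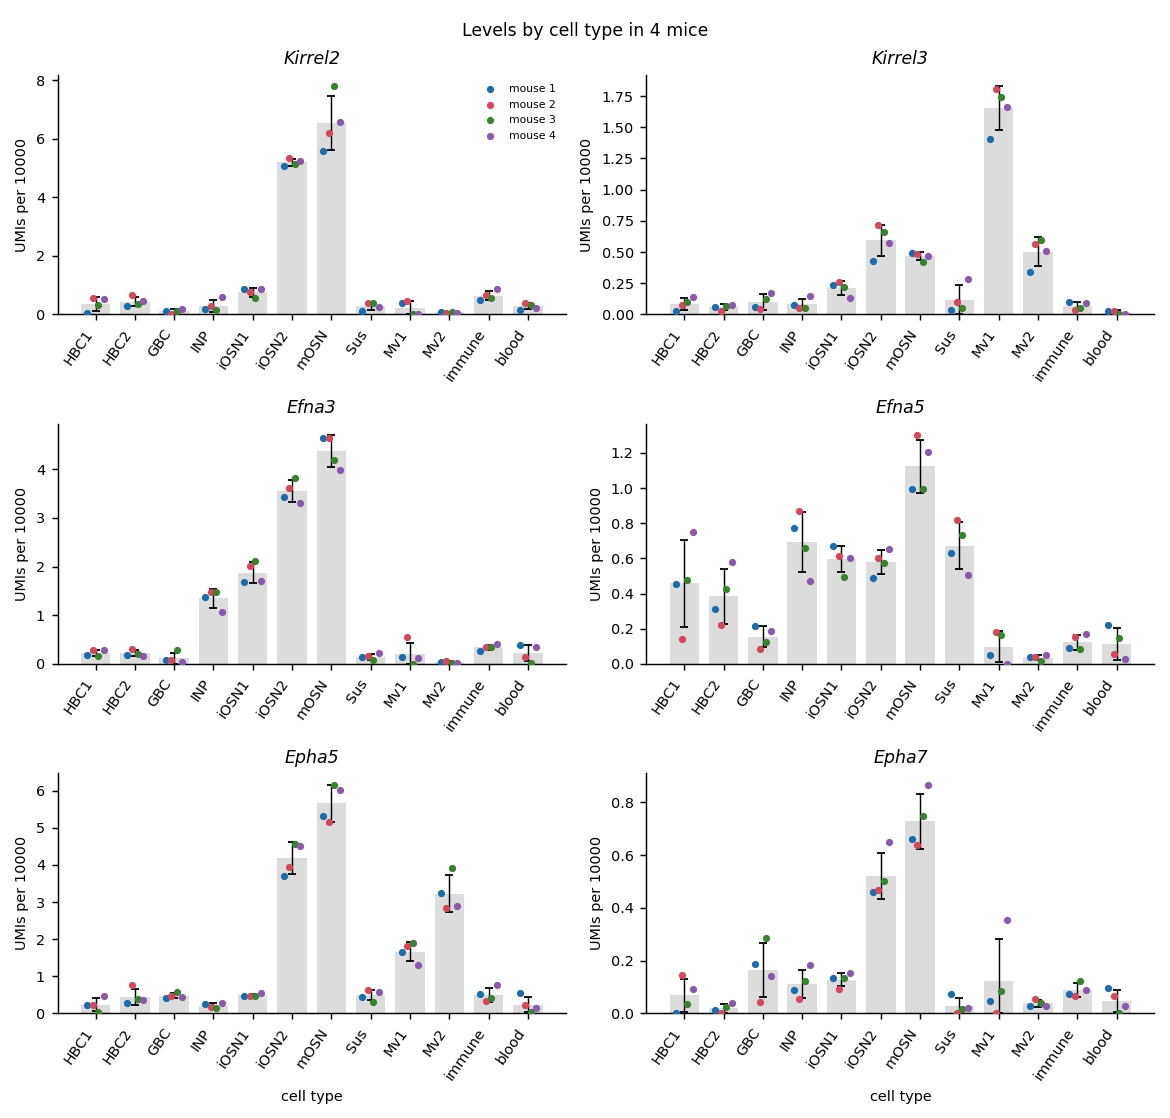
Levels of the 6 genes (UMIs per 10000, linear axes starting at 0) in each annotated cell type: bars are means over 4 mice, error bars are SD and coloured points are the mice. Kirrel2, Epha5, Efna3, Efna5 and Epha7 have their tallest bar in mOSN, Kirrel3 in Mv1, and Epha5 has a further high bar in Mv2.

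Within mature OSNs the submitters distinguish 10 clusters, named for Dlg2, Cd36, Cd55 or Calb2 or for none of these, each with a ventral (V.) and a dorsal (D.) form. Nqo1, the dorsal marker, was at 13.6 to 34.1 in dorsal and 0.277 to 1.70 in ventral clusters. The study divided the clusters into dorsal and ventral by Nqo1 and Nfix, the ventral marker, so these values are no separate check. Kirrel2, Epha5 and Epha7 had their highest means in Dlg2+ V. neurons and were lowest or nearly so in Calb2+ neurons, and Kirrel3, Efna3 and Efna5 ran the other way. As the clusters were made from these genes among others, the values are again a description.

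In Dlg2+ V. neurons Kirrel2 was 10.8, 11.3, 15.4 and 11.3 in mice 1 to 4 (12.2 ± 2.15), above all other clusters, with mouse 3 the highest. In the Calb2+ V. and Calb2+ D. neurons it averaged 1.39 ± 0.245 and 1.27 ± 0.263, below all other clusters, and Dlg2+ V. exceeded Calb2+ V. 8.76-fold. The 7 clusters between them, from Cd36+ V. (8.20) to Cd36+ D. (3.79), overlapped with their neighbours. The overlap of Ventral (6.69 to 8.70) with Cd55+ D. rested on mouse 3, at 7.55 in Cd55+ D. against 2.92 to 3.42 in the other mice, and Ventral was above Cd55+ D. in 4 of 4 mice. Epha5 spanned 9.46 in Dlg2+ V. to 1.66 in Calb2+ V., a ratio of 5.71, and Epha7 spanned 1.13 to 0.185, a ratio of 6.10. For both genes the ranges of Dlg2+ V. and Dlg2+ D. overlapped, with Dlg2+ D. at 8.55 for Epha5 and 0.848 for Epha7.

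Kirrel3 was 1.85, 1.84, 1.61 and 1.69 in Calb2+ D. neurons and 1.18, 1.34, 1.26 and 1.38 in Calb2+ V. neurons, so that both lay above every other cluster and apart from each other. The next was the Dorsal cluster at 0.587 ± 0.0896, and Cd55+ V. was lowest at 0.0566 ± 0.0382, with no Kirrel3 UMI in mouse 4. Efna3 was 8.10 ± 0.125 in Calb2+ D. and 7.57 ± 0.412 in Calb2+ V. against 2.10 ± 0.237 in Dlg2+ V., with no overlap. Efna5 was highest in the Calb2+ and Cd55+ clusters, at 1.89 to 2.59, and lowest in Dlg2+ D. (0.397) and Dlg2+ V. (0.353).

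Ventral and dorsal forms of the same cluster differed less than Dlg2+ and Calb2+ did. For Kirrel2 the ventral form was higher without overlap in the plain (1.84-fold), Cd36+ (2.16-fold) and Dlg2+ (1.53-fold) clusters, while the ranges overlapped in Calb2+ (1.10-fold) and Cd55+ (0.969-fold). Kirrel3 was lower in the ventral form in all 5 pairs without overlap, with ratios of 0.271 to 0.739. The 0.271 was that of Cd55+ and rests on 12 Kirrel3 UMIs in Cd55+ V. and 15 in Cd55+ D.

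**Figure D2:**
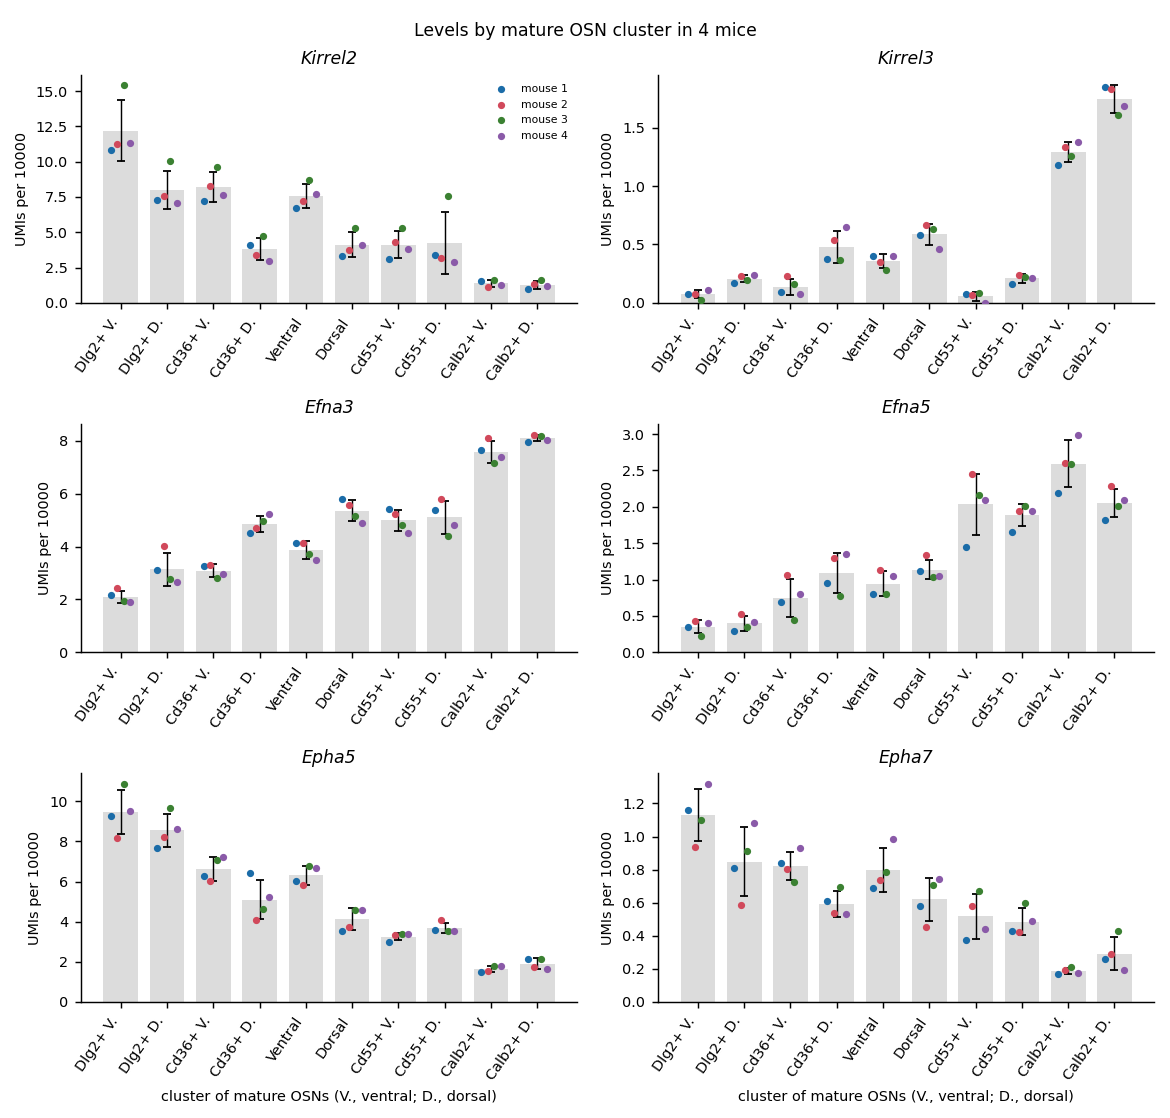
Levels of the 6 genes (UMIs per 10000, linear axes starting at 0) in 10 clusters of mature OSNs, with bars for the mean, error bars for the SD and points for the 4 mice. Kirrel2, Epha5 and Epha7 fall from Dlg2+ on the left to Calb2+ on the right, where Kirrel3, Efna3 and Efna5 are high.

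Receptor populations are defined by the receptor gene alone, so here the 6 genes could be tested. All 6 differed among the 98 populations that had 3 or more neurons in every mouse, and all 6 differed again among the 87 class II populations of these (class I and class II are the 2 evolutionary families of olfactory receptors). Kirrel2 ranked 11 of 5944 genes by the F statistic, which grows with counts and so is not a measure of spread. Counting error made up at most 14.2% of the variance across populations for 5 of the genes and 37.6% for Epha7.

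The test was edgeR's quasi-likelihood F test on UMI sums per mouse and population with the mouse as a block, and with Benjamini-Hochberg adjustment over all genes tested. It called 1607 of 5944 genes, which is 27.0% of those tested, against 6 of 6 here. With a stricter count filter (edgeR's filterByExpr) it called 1043 of 1979 genes, against 5 of 5 here. The F statistic and adjusted p were 31.2 and 1.52e-174 for Kirrel2, 18.4 and 1.50e-123 for Epha5, 11.0 and 1.18e-80 for Efna3, 8.65 and 1.43e-68 for Efna5, 7.81 and 5.44e-60 for Kirrel3, and 3.16 and 4.73e-17 for Epha7. Epha7 ranked 324 and the others between 11 and 79. Among class II populations 1538 of 6022 genes (25.5%) were called, with F from 32.8 for Kirrel2 to 3.46 for Epha7.

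Over the 134 populations Kirrel2 ranged from 0 to 21.2 UMIs per 10000, with a median of 7.12 and quartiles of 3.20 and 10.3. Epha5 ranged from 0.240 to 12.2 (median 5.28), Epha7 from 0 to 2.13 (0.692), Efna3 from 0.630 to 11.4 (3.88), Efna5 from 0 to 3.83 (0.788) and Kirrel3 from 0 to 3.91 (0.194), with 39 populations in which no Kirrel3 UMI was found. The variance that counting alone would give was 3.29% of the variance across populations for Kirrel2, 5.18% for Epha5, 8.59% for Efna3, 11.5% for Kirrel3, 14.2% for Efna5 and 37.6% for Epha7. The order of populations was shared by the mice in the same sequence of quality: the mean Spearman correlation over the 6 pairs of mice was 0.847 for Kirrel2, 0.732 for Epha5, 0.718 for Efna3, 0.578 for Kirrel3, 0.542 for Efna5 and 0.285 for Epha7, across populations that share each mouse's library.

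The spread was also wide among populations with the same most frequent cluster. Among the 76 populations whose neurons were most often in the plain Ventral cluster, Kirrel2 ranged from 0.132 to 21.2 and Efna3 from 0.630 to 10.6. Their 10th and 90th percentiles were 2.43 and 12.8 for Kirrel2 and 1.82 and 5.85 for Efna3. Such populations can also hold neurons of other clusters, and the part of the clusters in the spread was not tested. On the 2 sides of the size limit of 20 neurons, Kirrel2 was 2.35 to 12.7 (median 10.8) in the 11 populations with 20 neurons and 0.261 to 21.6 (median 8.07) in the 14 with 19. The median of Kirrel3 was 0.166 with 20 neurons and 0.405 with 19, and that of Epha5 8.18 and 4.79.

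The highest and lowest populations were taken among the 98 populations that had 3 or more neurons in every mouse. Among these 98, Olfr166 neurons (39 in all) had the highest Kirrel2, at 19.6, 18.7, 26.3 and 20.2 UMIs per 10000 in mice 1 to 4 (21.2 ± 3.44). Olfr1326-ps1 (16.7 ± 4.48) and Olfr1197 (14.6 ± 0.859) followed. In Olfr972 neurons (22 in all) no Kirrel2 UMI was found among 101857, which allows up to 0.295 per 10000, a level at least 70.4-fold lower than in Olfr166 (pooled sums, counting error only).
The other end of Kirrel2 held Olfr686, a class I receptor, at 0.132 ± 0.155 from 2 UMIs, and Olfr826 at 0.355 ± 0.521.

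For Kirrel2 and Efna3, Olfr972 and Olfr166 stood at opposite ends of the 98 populations. Kirrel3 was highest in Olfr972, at 3.24, 3.76, 3.81 and 4.83 (3.91 ± 0.666), against 0.167, 0, 0.666 and 0.311 in Olfr166. Efna3 was also highest of the 98 in Olfr972, at 9.71, 13.7, 8.58 and 8.69 (10.2 ± 2.39), and lowest in Olfr166, at 0.666, 0.567, 0.666 and 0.623 (0.630 ± 0.0468). In both genes every Olfr972 value lay above every Olfr166 value, with pooled ratios of 14.5 for Kirrel3, from 5 UMIs in Olfr166, and 16.4 for Efna3. Epha5 was lowest in Olfr972, at 0.240 ± 0.277 from 2 UMIs, and 11.1 ± 2.92 in Olfr166. S100a5 was 904 ± 182 in Olfr166 and 2.06 ± 1.34 in Olfr972.

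The other extremes of the 98 fell to other receptors. After Olfr972, Kirrel3 was highest in the class I population Olfr609 (1.97 ± 1.33) and in Olfr1507 (1.63 ± 0.992), and 23 of the 98 populations had none. Efna3 was next highest in Olfr728 (7.87 ± 0.655) and Olfr826 (7.77 ± 1.69), and next lowest in Olfr741 (0.681 ± 0.545) and Olfr722 (1.23 ± 0.446). Efna5 was highest in Olfr728, at 2.39, 3.48, 4.90 and 4.53 (3.83 ± 1.13), then in Olfr826 (3.46) and Olfr827 (3.41). Its lowest values were 0 UMIs in Olfr976, which allows up to 0.302 per 10000, and 1 UMI each in Olfr722 and Olfr1239.

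The receptor genes of the Eph kinases had their own ends. Among the 98 populations Epha5 was highest in Olfr6 (11.8 ± 2.53), Olfr1326-ps1 (11.7 ± 4.59) and Olfr2 (11.4, 11.5, 10.4 and 13.1), and after Olfr972 lowest in Olfr1490 (0.704 ± 0.845) and Olfr686 (0.749 ± 0.311). Epha7 was highest of the 98 in Olfr722 (1.59 ± 0.357), Olfr976 (1.58 ± 1.52) and Olfr15 (1.52 ± 0.704), and lowest in Olfr972 (1 UMI), Olfr523 and Olfr354 (2 UMIs each).

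The 10 largest populations held 49 to 83 neurons each. In Olfr728 (83 neurons) Kirrel2 was 0.566, 0.205, 0.239 and 0.566 in mice 1 to 4, and in Olfr1226 (79 neurons) 6.68, 8.06, 12.6 and 8.19, without overlap. Olfr55 (75 neurons) and Olfr239 (71 neurons) also differed in Kirrel2, Efna3 and Kirrel3. Kirrel2 was 0.635, 1.92, 1.82 and 1.26 in Olfr55 and 3.64, 3.09, 6.30 and 5.82 in Olfr239, and Efna3 was 7.35, 7.24, 7.28 and 6.56 against 4.93, 4.17, 2.65 and 3.02, both without overlap. Kirrel3 was 0.764 ± 0.268 in Olfr55, while Olfr239 had no Kirrel3 UMI, which allows up to 0.0805 per 10000.

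Among these 10 populations Olfr1361 (52 neurons, mostly of the Dorsal cluster) joined low Kirrel2, at 0.804, 0.523, 0.840 and 0.292, with S100a5 at 264 UMIs per 10000. Olfr1176, also mostly Dorsal, had Kirrel2 at 3.90 ± 0.835 with S100a5 at 38.5. Olfr1226 combined Kirrel2 at 8.88 ± 2.57 with Kirrel3 at 1.36 ± 0.822, its Kirrel3 values being 1.59, 1.25, 0.315 and 2.29 in mice 1 to 4. In the remaining 4 populations Kirrel2 was 2.91 (Olfr1297), 6.04 (Olfr1440), 8.12 (Olfr1348) and 9.02 (Olfr1264), and Olfr1440 had no Kirrel3 UMI.

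**Figure D3:**
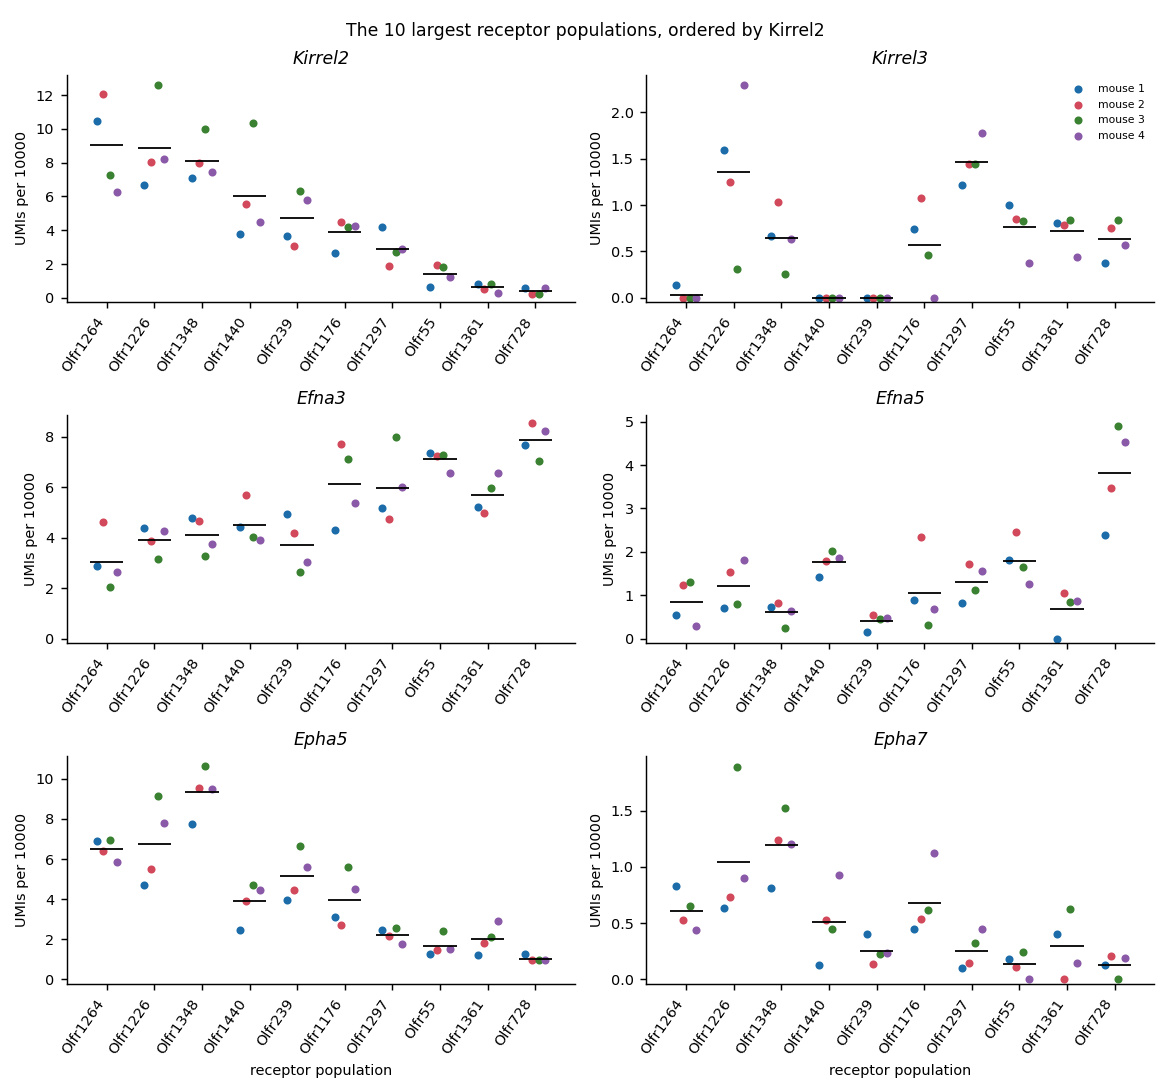
Levels of the 6 genes (UMIs per 10000, linear axes) in the 10 largest receptor populations, ordered by mean Kirrel2: points are the 4 mice and black lines the means. Kirrel2 runs from 9.02 in Olfr1264 to 0.394 in Olfr728, and Efna3 is lower where Kirrel2 is high.

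Kirrel2 and Kirrel3 ran opposite to each other across the populations, although some populations had both. Across the 134 populations the Spearman correlation was -0.50 and the Pearson correlation of log2 levels -0.54. The points share the 4 libraries and the depth of each neuron, so these are descriptions. Populations with much Kirrel3 had little Kirrel2: all 11 populations with Kirrel2 below 1 UMI per 10000 had Kirrel3 above its median, and none of the 35 with Kirrel2 above 10 had Kirrel3 above 1. Not all populations followed this, as 20 were above the median of both genes and 20 above neither, against 47 above for Kirrel2 only and 47 for Kirrel3 only. Of the 16 populations with Kirrel3 above 1, 2 were above the median of Kirrel2, namely Olfr1226 and, chosen after its values were seen, Olfr1336.

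The relation kept its sign in each mouse and subset examined, at varied strength. It was -0.34, -0.49, -0.38 and -0.35 within mice 1 to 4 (133 populations in mouse 3), -0.50 in the 119 class II and -0.49 in the 15 class I populations. Among the 76 populations mostly of the Ventral cluster it was weaker, at -0.30. Without mouse 2 it was -0.45.

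Single neurons, pooled over all populations, showed the same tendency. They were not compared within populations, so their shares are not separate from the relation across populations. Each of 4549 mature OSNs with a receptor name was thinned to 5000 UMIs, which left out 5242 neurons that had fewer. Kirrel2 was then found in 80.7% ± 2.48 of neurons, Kirrel3 in 16.9% ± 1.14 and both in 11.0% ± 0.554. Kirrel2 was found in 62.2%, 62.1%, 66.3% and 69.1% of the neurons with a Kirrel3 UMI in mice 1 to 4, and in 80.6%, 84.5%, 85.6% and 85.2% of those without. The share was lower with Kirrel3 in 4 of 4 mice and the ranges did not overlap; an exact sign permutation test over 4 mice cannot give a two-sided p below 0.125. With all UMIs, in 9791 neurons with a median of 4820, the shares were 64.6% and 81.9%. Background from free RNA was gauged in sustentacular cells, where at 5000 UMIs (205 cells) Kirrel2 was found in 6.07% and Kirrel3 in 4.98%, and in immune cells (521), where they were found in 15.2% and 3.56%. The 521 were the deepest of 2391 immune cells, which had a median of 2144 UMIs, and the other 1870 were left out. Unthinned sustentacular cells had a median of 5587 UMIs and shares of 5.53% and 5.82%.

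**Figure D4:**
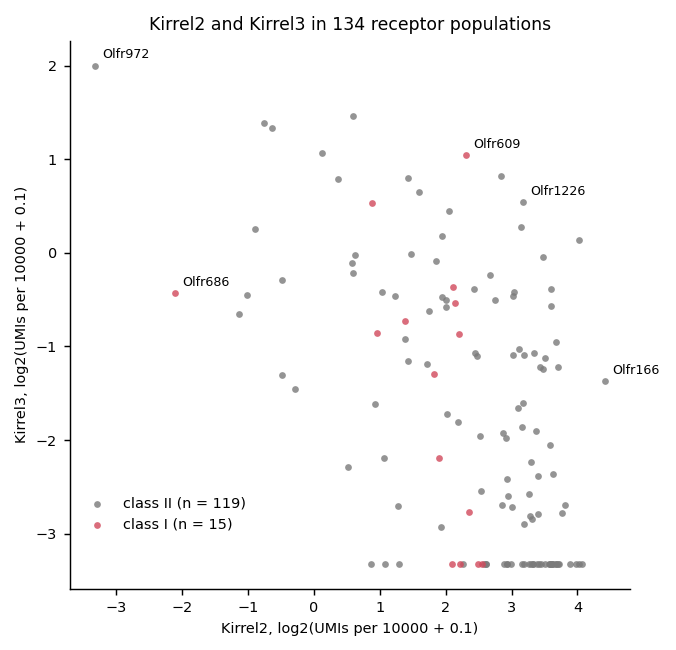
Kirrel3 against Kirrel2, both as log2(UMIs per 10000 + 0.1), in 134 receptor populations (points; class I in red, class II in grey). The points lie lower on the right, Olfr972 sits at the top left, Olfr1226 is high in both, and the lowest row of points holds the 39 populations without a Kirrel3 UMI.

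The ephrin and Eph genes were tied to Kirrel2 more closely than Kirrel3 was. Across the 134 populations the Spearman correlation with Kirrel2 was 0.90 for Epha5, 0.77 for Epha7, -0.87 for Efna3 and -0.73 for Efna5, so the EphA receptors ran with Kirrel2 and their ephrin-A ligands against it. The ligand and receptor genes were opposed to each other, at -0.85 for Efna3 and Epha5 and -0.74 for Efna5 and Epha5, while Efna3 and Efna5 ran together at 0.79 and Epha5 and Epha7 at 0.74. Kirrel3 went with the ligands more loosely, at 0.49 with Efna3 and 0.42 with Efna5, and at -0.41 with Epha5. These values also come from populations that share libraries and depth.

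The main pairs kept their direction in each mouse and class. Kirrel2 and Epha5 correlated at 0.76 to 0.79 within single mice, at 0.79 in class I and at 0.83 in populations mostly of the Ventral cluster. Kirrel2 and Efna3 correlated at -0.79 to -0.69 within single mice, at -0.69 in class I and at -0.80 in Ventral populations. In the 22 populations mostly of the Dorsal cluster the values were closer to 0, with 0.71 for Epha5 and -0.58 for Efna3.

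S100a5 ran with 1 side of this pattern. Its Spearman correlation across the 134 populations was 0.79 with Kirrel2, 0.79 with Epha5, 0.57 with Epha7, -0.88 with Efna3, -0.82 with Efna5 and -0.56 with Kirrel3. Among mostly Dorsal populations Kirrel2 and S100a5 correlated at 0.33, and Olfr1361 above is an example of a population where they parted. Omp, which marks mature OSNs, correlated with Kirrel2 at 0.35.

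The genes most like each member were sought over the same 134 populations among the 1483 genes, receptor genes left out, with a mean of at least 5 UMIs per population and mouse. Kirrel2, Efna3 and Epha5 were among these candidates, whereas Kirrel3, Efna5 and Epha7 were below that mean, so the places given here leave those 3 genes out. Of the candidates Epha5 was the closest to Kirrel2, followed by Lrrc3b (0.88) and Pcp4l1 (0.79), and the most opposed were Efna3, Tom1 (-0.77) and Sult1d1 (-0.72). The closest to Epha5 were Kirrel2, Lrrc3b (0.86) and Pcp4l1 (0.81), and to Epha7 Kirrel2, Lrrc3b (0.75) and Epha5. Against them stood Efna3, Tom1 (-0.73) and Npdc1 (-0.71) for Epha5, and Efna3, Pde6d (-0.59) and Htatip2 (-0.58) for Epha7.

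Of the same candidates Efna3 was most like Tom1 (0.79), Dcdc2a (0.77) and Htatip2 (0.73) and most opposed to S100a5, Kirrel2 and Epha5; Efna5, not a candidate, correlated with Efna3 at 0.79. Efna5 was most like Efna3, Pde6d (0.72) and Dcdc2a (0.68) and most opposed to Pcp4l1 (-0.84), S100a5 and Epha5. Kirrel3 was most like Stoml3 (0.68), Cnga4 (0.67), a subunit of the olfactory transduction channel, and Ppp3ca (0.66), and among the genes most opposed to it were Map1lc3a (-0.59) and Olfm1 (-0.56).

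**Figure D5:**
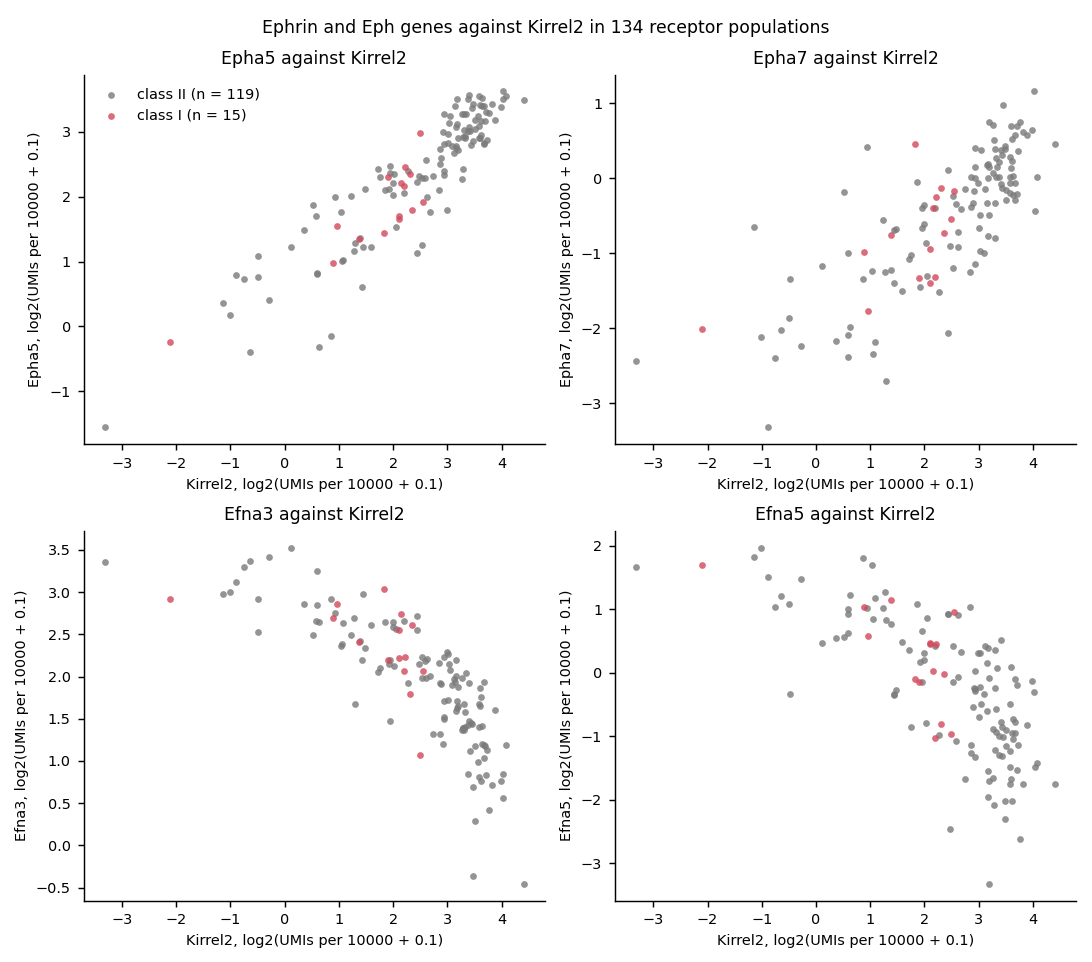
Epha5, Epha7, Efna3 and Efna5 against Kirrel2, all as log2(UMIs per 10000 + 0.1), in 134 receptor populations (class I in red, class II in grey). Epha5 and Epha7 rise and Efna3 and Efna5 fall with Kirrel2, most tightly for Epha5 (Spearman 0.90) and most loosely for Efna5 (-0.73).

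Class I and class II neurons were then compared as wholes, 1071 neurons against 8641. Kirrel2 and Epha5 were lower and Efna3 was higher in class I neurons, all by less than 1.5-fold. When only neurons of dorsal clusters were compared, the 3 differences turned round. The classes were set by the position of the receptor gene, class I being the receptor genes within chromosome 7, 102476579 to 105369355.

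Kirrel2 was 3.98, 3.90, 6.47 and 4.58 in class I neurons of mice 1 to 4 and 5.90, 6.55, 8.05 and 6.75 in class II neurons. It was lower in class I in 4 of 4 mice, although the ranges overlapped because mouse 3 was high in both. Epha5 was 4.61, 4.11, 5.28 and 5.11 against 5.47, 5.34, 6.30 and 6.16, and Efna3 was 5.03, 5.35, 4.60 and 4.69 against 4.60, 4.55, 4.15 and 3.89. For Epha5 the class I values all lay below the class II values, and for Efna3 all above. The log2 difference (class I minus class II) was -0.50 ± 0.04 (SE, adjusted p = 1.49e-22) for Kirrel2, -0.26 ± 0.04 (2.88e-09) for Epha5 and 0.21 ± 0.04 (2.05e-06) for Efna3 by edgeR's quasi-likelihood test with Benjamini-Hochberg adjustment. Here and below, the SE of a log2 difference was taken from the F statistic of the fit. It does not measure the spread over the 4 mice. S100a5, which ran with Kirrel2 and Epha5 across populations, was higher in class I (0.16 ± 0.02, adjusted p = 1.80e-11, edgeR). Kirrel3 (0.20 ± 0.09, adjusted p = 0.194), Efna5 (0.11 ± 0.07, 0.358) and Epha7 (-0.21 ± 0.08, 0.0955) did not pass. So 3 of the 6 genes were called, against 2163 of 16805 genes (12.9%) in all, 5.12% higher (861 genes) and 7.75% lower (1302 genes) in class I. With relative log expression (RLE) size factors in place of TMM, 1101 genes were higher and 1059 lower, so that 51.0% of calls in place of 39.8% were higher in class I, and with the filterByExpr count filter 52.2% were; the 3 genes kept their direction and call under both. With neurons thinned to 5000 UMIs, Efna3 missed the threshold (0.15, adjusted p = 0.108, edgeR). Without mouse 1, 1296 genes were called, and without mouse 3 Epha7 passed as well, at -0.31 (adjusted p = 0.0398). With no mouse block only Kirrel2 passed of the 6, and 1063 genes in all.

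The 2 classes lie in different places, since 92.0% ± 2.24 of class I and 20.7% ± 2.42 of class II neurons were in dorsal clusters. Within dorsal clusters (967 class I and 1722 class II neurons) Kirrel2 was 3.92, 3.83, 6.24 and 4.41 in class I and 3.36, 3.73, 5.33 and 3.75 in class II, higher in class I in 4 of 4 mice with overlapping ranges. The log2 difference was 0.22 (adjusted p = 0.00103) for Kirrel2, 0.16 (0.0188) for Epha5, -0.16 (0.00841) for Efna3 and -0.58 (0.000177) for Kirrel3 in the same edgeR test, in which 517 of 13703 genes were called. Kirrel3 was 0.559, 0.552, 0.516 and 0.473 in dorsal class I neurons against 0.852, 0.907, 0.774 and 0.688 in dorsal class II neurons, without overlap. Efna5 (-0.17, adjusted p = 0.331) and Epha7 (0.07, 0.845) did not pass in either comparison and also differed in sign between them. Within class II, ventral neurons had 1.86-fold the Kirrel2, 1.41-fold the Epha5, 0.699-fold the Efna3 and 0.459-fold the Kirrel3 of dorsal ones, each without overlap. The dorsal and ventral clusters were themselves made from expression, and their part in the difference between the classes was not tested further.

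The other Kirrel, nephrin, ephrin and Eph genes were scarce in mature OSNs, where all but Kirrel (0.487) and Nphs1 (0.256) had a mean below 0.1 UMIs per 10000. Of 21 such genes 1, Kirrel, had enough UMIs to be tested among populations, and it passed (F = 6.63, adjusted p = 1.92e-50, edgeR), with levels of 0 to 2.12 (median 0.313) over the 134 populations. Of the 9 tested between the classes 2 passed, 1 in each direction, against 12.9% of all genes, with a median log2 difference of -0.03 over the 9 against -0.05 over all genes tested. Nphs1, which encodes nephrin, a partner of Kirrel proteins in kidney, was lower in class I, at 0.107 ± 0.0138 against 0.276 ± 0.0521 in class II, a log2 difference of -1.31 ± 0.17 (adjusted p = 1.35e-10, edgeR). It lies next to Kirrel2 on the opposite strand (chromosome 7, 30458315 to 30487223), and the 2 correlated at 0.73 across the 134 populations. Over these populations Nphs1 ranged from 0 to 2.06 with a median of 0.0739, so many of its values rest on few UMIs. The cause of the correlation was not tested. Efnb1, a B-type ephrin, was higher in class I but near the limit of detection, at 0.0446 ± 0.0304 against 0.0158 ± 0.00874 with no UMI in class I neurons of mouse 4 (log2 difference 1.65 ± 0.38, adjusted p = 0.000547, edgeR).

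Of the 15 other axon-sorting and guidance genes 10 were tested among populations and all 10 passed, against the 27.0% of all genes given above. Pcdh10, an adhesive protocadherin, led with F = 18.7 and ranged from 0 to 10.6 UMIs per 10000 over the 134 populations. Robo2, a Slit receptor, followed with F = 12.9 (0 to 4.54), then Sema7a, a membrane-anchored semaphorin, with 10.8 (0.112 to 5.80), and Nrp2, a semaphorin receptor, with 10.2 (0 to 3.87). Tenm2, a teneurin (F = 9.85), and the cell adhesion gene Ncam2 (F = 8.88) completed the leading 6. The F of Kirrel2 (31.2) exceeded all of them and that of Epha5 (18.4) all but Pcdh10, although F also grows with a gene's counts. With Kirrel2 these genes correlated less than Epha5 did, at 0.70 for Sema7a, 0.50 for Pcdh10, 0.36 for Ncam2 and -0.46 for Robo2.

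Between the classes 14 of the 15 were tested and 10 passed, 5 higher and 5 lower in class I, with a median log2 difference of -0.02 over the 14. Of all genes tested 12.9% passed, 5.12% higher and 7.75% lower, with a median of -0.05. Ncam2 (0.0989 ± 0.0472 in class I, 1.11 ± 0.106 in class II), Nrp2 (0.139 ± 0.0149, 0.866 ± 0.0643) and Nrp1 (0.112 ± 0.0220, 0.397 ± 0.0242) were lower in class I, with log2 differences of -3.56, -2.60 and -1.74. Robo2 was higher, at 2.30 ± 0.197 against 1.09 ± 0.137 (1.12). Sema7a was lower at -0.51 and Sema3a higher at 1.47. The differences of these named genes were each larger in size than that of any of the 6 genes, that of Sema7a only slightly. These values and those of Nphs1 and Efnb1 compare all neurons, and most class I but few class II neurons were in dorsal clusters. They were not examined within dorsal clusters, where the sign of all 6 genes turned.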

How the data were processed

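Single-cell libraries of the main olfactory epithelium of 4 mice were analysed. The authors' deposited files hold UMI counts per gene and barcode, not normalised, made per the labels with Cell Ranger 6.0.1 on GRCm38; the deposited cell types, OSN clusters and receptor names were used as given, and the merged table and the single matrices agreed in every value of the 6 genes. Counts of the 9791 named mature OSNs were summed per mouse and population or class, so that the mice are the replicates. Sums were tested with the edgeR 4.0.16 quasi-likelihood F test (R 4.3.3), TMM scaling, the mouse as block, a common dispersion from the most abundant 10% of genes and genes with a mean of at least 1 UMI per sum. The 1430 receptor genes were left out, and Benjamini-Hochberg adjusted p under 0.05 was called. The study compared single cells by a Wilcoxon test, which takes cells of 1 mouse as replicates, and sums per mouse replaced it. The blocks pair the sums because sums of 1 mouse come from the same animal and library. Levels and correlations were computed with Python 3.11.15 (numpy 2.4.6, pandas 2.3.3, scipy 1.17.1), with a pseudocount of 0.1 on the log2 scale, and a floor of 3 counts where a count was 0; floors cover counting error only. DESeq2 1.42.0 served as an alternative tool, beside other filters, scalings, size limits, thinning, removal of the 5% of neurons with the most UMIs per mouse (a guard against doublets, as no caller was run) and leaving out each mouse. Of the 55511 features, 55130 matched GENCODE M21. Named were all 6 genes, the 10 largest populations, the 3 highest and 3 lowest per gene among populations that had 3 or more neurons in every mouse, the 3 most like and most opposed genes among those with a mean of at least 5 UMIs per sum, and up to 6 called genes per list and test by F. A gene that this rule names is not reported here. The members, lists and tests were chosen with earlier results of these data known. The scripts were tested on simulated data.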

Additional observations from a re-analysis of the deposited data

Results flagged for a closer look

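Each value below is a mouse that lay apart from the other 3 by Dixon's criterion for 4 samples (the gap to the nearest mouse over the whole range), which chance gives in about 1 of 20 sets. It was met in 14 of the 238 sets examined, and the causes were not tested.

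Mouse 3 stood high for Kirrel2 in the Cd55+ D. cluster, at 7.55 UMIs per 10000 against 2.92 to 3.42 in the others, and in the Dlg2+ V. cluster, at 15.4 against 10.8 to 11.3. Mouse 3 was also high for Epha5 in the Olfr1326-ps1 population, at 18.5 against 8.85 to 10.5.

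Epha5 was 0.542 in the iOSN1 cells of mouse 4 against 0.464 to 0.477, 4.06 in the Cd55+ D. cluster of mouse 2 against 3.51 to 3.58, 2.97 in the Cd55+ V. cluster of mouse 1 against 3.32 to 3.38, and 1.26 in Olfr728 neurons of mouse 1 against 0.944 to 0.956. Efna3 was 6.56 in Olfr55 neurons of mouse 4 against 7.24 to 7.35. Kirrel2 was 2.66 in Olfr1176 neurons of mouse 1 against 4.19 to 4.49, and Kirrel3 was 0.438 in Olfr1361 neurons of mouse 4 against 0.785 to 0.840.

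In 4 further sets the mouse apart was the only one with a UMI. These were Efna5 in Olfr722 (0.249, mouse 3) and in Olfr1239 (0.328, mouse 4), Epha7 in Olfr972 (0.342, mouse 2) and Kirrel3 in Olfr1264 (0.138, mouse 1).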

How the results depend on the processing

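The 6 genes passed among all populations and among class II populations under every alternative that tested them; a stricter count filter (edgeR's filterByExpr) left Epha7 untested, and 5 of 5 then passed. In all, 1607 of 5944 genes were called among all populations and 1538 of 6022 among class II populations. With only neurons in which exactly 1 receptor was detected, 883 of 5174 and 879 of 5257 were called. With filterByExpr 1043 of 1979 and 969 of 1935 were called, a larger share than in the main fits. With neurons thinned to 5000 UMIs, 15 populations with 456 neurons remained, all of class II. The 2 fits were then the same fit, in which 507 of 5492 were called.

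Between the classes, 3 of the 6 genes passed, 3 to 4 when a mouse was left out (Epha7 without mouse 3) and 1 with no replicate block, where Efna3 (0.22, adjusted p = 0.145) and Epha5 (-0.26, 0.0932) missed the threshold. Genes called in all were 2163, and 1296 without mouse 1, 1054 after thinning (Efna3 then 0.15, adjusted p = 0.108), 1063 with no block and 1002 with DESeq2. In neurons of dorsal clusters, 517 genes were called and the sign of all 6 turned, to 0.22 for Kirrel2, -0.58 for Kirrel3, -0.16 for Efna3, -0.17 for Efna5, 0.16 for Epha5 and 0.074 for Epha7. The correlation of Kirrel2 and Kirrel3 (-0.50) was -0.30 in Ventral populations, -0.34, -0.38 and -0.35 within mice 1, 3 and 4, and -0.51 to -0.45 without each mouse in turn. Removing neurons whose barcode recurs in another library, an alternative chosen after seeing the data, gave -0.50 and changed no call of the 6 genes. Except where a loss of genes or neurons is stated, the cause was not tested. Shallow counts limit Kirrel3, Efna5 and Epha7 most.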

Other observations

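The EphA receptor gene Epha5 was found in most Mv2 microvillous cells. At 5000 UMIs per cell it was detected in 71.6%, 69.0%, 77.7% and 73.0% of 905 Mv2 cells in mice 1 to 4 (72.8% ± 3.66), against 82.9% ± 3.16 of mature OSNs with a receptor name. Sustentacular cells (205) had 16.5% ± 3.22 and immune cells (521) 17.8% ± 5.98, the shares to be set against free RNA. Kirrel3 was found in 17.8% ± 4.29 of Mv2 cells and Kirrel2 in 1.95% ± 0.739. Efna5 was found in 27.7% ± 7.09 of sustentacular cells and 1.60% ± 0.617 of Mv2 cells.

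Across the 134 receptor populations the position markers were correlated with some of the 6 genes. Nqo1, the dorsal marker, correlated with Kirrel2 at -0.45, with Kirrel3 and Efna3 at 0.35 each and with Epha5 at -0.34. Nfix, the ventral marker, correlated with Kirrel2 at 0.36 and with Kirrel3 at -0.08. These Nfix values were smaller in size than those of S100a5 with the same genes, 0.79 and -0.56. Among the 76 populations mostly of the Ventral cluster, Nqo1 and Kirrel2 correlated at -0.07 and S100a5 and Kirrel2 at 0.77. The study told ventral from dorsal clusters by Nqo1 and Nfix, which leaves little Nqo1 to vary in ventral ones. The -0.07 therefore cannot be set against the value for S100a5. Over all 134 populations Nqo1 had a median level of 0.0605 and a highest of 46.8. Its order among populations below the median thus rests on few UMIs, and its other values cannot be set against those of S100a5 either. The populations share libraries and depth, and no test was made.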
